A study of Mus musculus with 2756 samples.

Results

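The core genes of the Reelin pathway, 4 of the 16441 genes in the deposited count table, were followed by name across single cells of the embryonic mouse neocortex: Reln (the ligand Reelin), Lrp8 and Vldlr (its receptors) and Dab1 (the adaptor inside the receiving cell). They were chosen by name and not by their values, although earlier results of these data were known. Dividing cells at the ventricle were marked with FlashTag, a fluorescent dye taken up at the ventricular surface, at embryonic day 12, 13, 14 or 15 (E12 to E15). The putative primary somatosensory cortex was dissected 1, 24 or 96 h later, the brightest cells of the sort were captured on a microfluidic circuit, and polyA RNA of 2756 cells was sequenced. The labels give no genotype, strain or treatment beyond the dye, and no animal or litter, so the 12 conditions (day by time) are 12 samples. The authors placed each cell in 1 of 15 clusters, which fall by name into 6 classes. AP are apical progenitors, the stem cells at the ventricle, and BP are basal progenitors, which divide away from it. N1d and N4d are excitatory neurons, named for an age of about 1 day and 4 days, IN are interneurons and Astro are astrocytes. Some cells of a class come from another time than its name gives, such as 13 N4d cells of E15 at 1 h. Levels are given as CPM, a gene's counts per M (mega) of all counts summed over a group of cells. Fold changes and their standard errors (SE) are log2 values from edgeR's quasi-likelihood test, with p-values adjusted by Benjamini-Hochberg over all genes tested and a threshold of 0.05.

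Reelin is a large secreted glycoprotein. It is known to bind the lipoprotein receptors ApoER2 (encoded by Lrp8) and VLDLR on migrating neurons, which leads to phosphorylation of Dab1 by the Src family kinases Fyn and Src, recruitment of Crk adaptors and activation of Rap1, and then to degradation of Dab1 through Cullin 5. In the embryonic cortex its main textbook source is the Cajal-Retzius cell of the marginal zone, with interneurons as a later source, and mice without Reelin or Dab1, or without both receptors, have disordered cortical layers.

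By GENCODE vM21 on GRCm38, Reln (ENSMUSG00000042453.14) lies on the minus strand of chromosome 5 from 21884454 to 22344702. Lrp8 (ENSMUSG00000028613.14) lies on the plus strand of chromosome 4 from 107802261 to 107876840. Vldlr (ENSMUSG00000024924.14) lies on the plus strand of chromosome 19 from 27216484 to 27254231. Dab1 (ENSMUSG00000028519.16) lies on the plus strand of chromosome 4 from 103619359 to 104744844, the longest span of these genes. The antisense gene Gm10475 shares exon bases with Reln, and the strand setting of the counting is not stated, so reads of the pair cannot be told apart. No gene shares exon bases with the other members.

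The sequences upstream of the ligand and of the adaptor are shown. RefSeq's promoter table (GRCm38.p6) holds a window for each of them close to the start of a principal GENCODE transcript. The distance is 3 bases for Reln and 52 bases for Dab1. The nearest windows of Lrp8 and Vldlr lie 571 and 337 bases from such a start and are not printed. For Reln and Dab1 the 250 bases before the RefSeq start are printed, 5′ to 3′ on the gene's strand. They come from chr5:22344706-22344955 (minus strand) and chr4:104367288-104367537 (plus strand). Capitals mark the GC box GGGCGG, searched on both strands.
Reln: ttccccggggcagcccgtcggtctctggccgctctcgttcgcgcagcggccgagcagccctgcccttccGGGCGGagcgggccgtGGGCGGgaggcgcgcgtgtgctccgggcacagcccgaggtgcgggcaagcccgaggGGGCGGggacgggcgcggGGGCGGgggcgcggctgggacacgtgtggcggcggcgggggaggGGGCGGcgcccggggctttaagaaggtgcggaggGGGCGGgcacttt
Dab1: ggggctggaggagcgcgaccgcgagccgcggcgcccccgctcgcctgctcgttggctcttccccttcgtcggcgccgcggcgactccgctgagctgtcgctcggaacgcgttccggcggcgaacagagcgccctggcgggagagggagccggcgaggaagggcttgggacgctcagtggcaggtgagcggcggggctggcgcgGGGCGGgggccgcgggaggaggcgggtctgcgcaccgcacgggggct
The Reln stretch holds 6 GC boxes and the Dab1 stretch 1. In windows of 300 bases (250 before the start and 50 after), 35.7% of 32851 mouse promoters hold this motif. CpG pairs number 47 in the Reln window and 46 in the Dab1 window, against a median of 7 over all promoters, and GC content is 80.7% and 77.3% against a median of 52.7%. Of 3 other motifs searched on both strands, the E-box CANNTG is found 1 time in each window and in 72.3% of all promoters. The homeodomain core TAATTA (5.29% of promoters) and the T-box motif GTGTGA (14.5%) are in neither. The printed Dab1 window lies inside the span of the gene. Another RefSeq window of Dab1, around the start of that span (chr4:103619250-103619549), is not printed. It holds 0 GC boxes, 2 E-boxes and 12 CpG pairs, with a GC content of 57.3%. A match is a description of the letters, not a binding site.

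The conditions held 134 to 301 cells and 52.3 to 99.0 M counts, and a cell had a median of 328910 counts. No pair of cells had identical counts. The authors' names fitted the marker lists for most classes: all 10 interneuron markers were highest in IN, all 7 astrocyte markers in Astro, 5 of 6 BP markers in BP and 6 of 8 excitatory neuron markers in N1d or N4d, while 3 of 8 AP markers were highest in AP and the others in Astro. Titles carry 6 run codes of unstated meaning, each with 1 collection time. Differences between times thus cannot be told apart from differences between run codes. At 24 and at 96 h, E12 and E13 share a code and E14 and E15 share another.

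Reln transcripts were concentrated in few cells. Of 2756 cells, 359 (13.0%) had a Reln count, and 153 of these had a single count. The 63 cells with at least 100 counts held 87.0% of all Reln counts, and 20 cells held 50% of them. Of those 63 cells, 28 were IN, 24 were N1d, 7 were N4d, 2 were AP and 2 were BP. The receptors and the adaptor were spread more widely. Lrp8 had a count in 1910 cells, Dab1 in 1933 and Vldlr in 741.

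Across clusters, with the cells of all conditions pooled, Reln was highest in the interneurons. Its level was 208 CPM in IN.1 (142 cells) and 84.1 CPM in IN.2 (101 cells), then 37.6 CPM in N1d.early and 22.4 CPM in N1d.late. The N4d clusters followed with 4.61 to 19.0 CPM, both BP clusters with 3.64 and 4.53 CPM, Astro with 3.35 CPM and the AP clusters with 0.142 to 3.78 CPM. Of these IN.1 cells, 61 came from E12 at 96 h, against 24 of the IN.2 cells. Within days at 96 h IN.1 was above IN.2 at E12 only. On the other days IN.2 held the IN cell of highest Reln count. Over pooled cells the order has no replicate error, and neighbours from N4d.late2 down to Astro lay between 3.35 and 4.61 CPM. Reln had a count in 35.9% of IN.1 cells (95% Clopper-Pearson interval 28.0 to 44.4, counting error only) at a median depth of 274786 counts. The same share was 4.62% (2.13 to 8.58) in AP.mid2 at 368270 counts, where 0 of 195 cells had 5 or more counts, which allows a share of up to 1.54%.

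**Figure D1:**
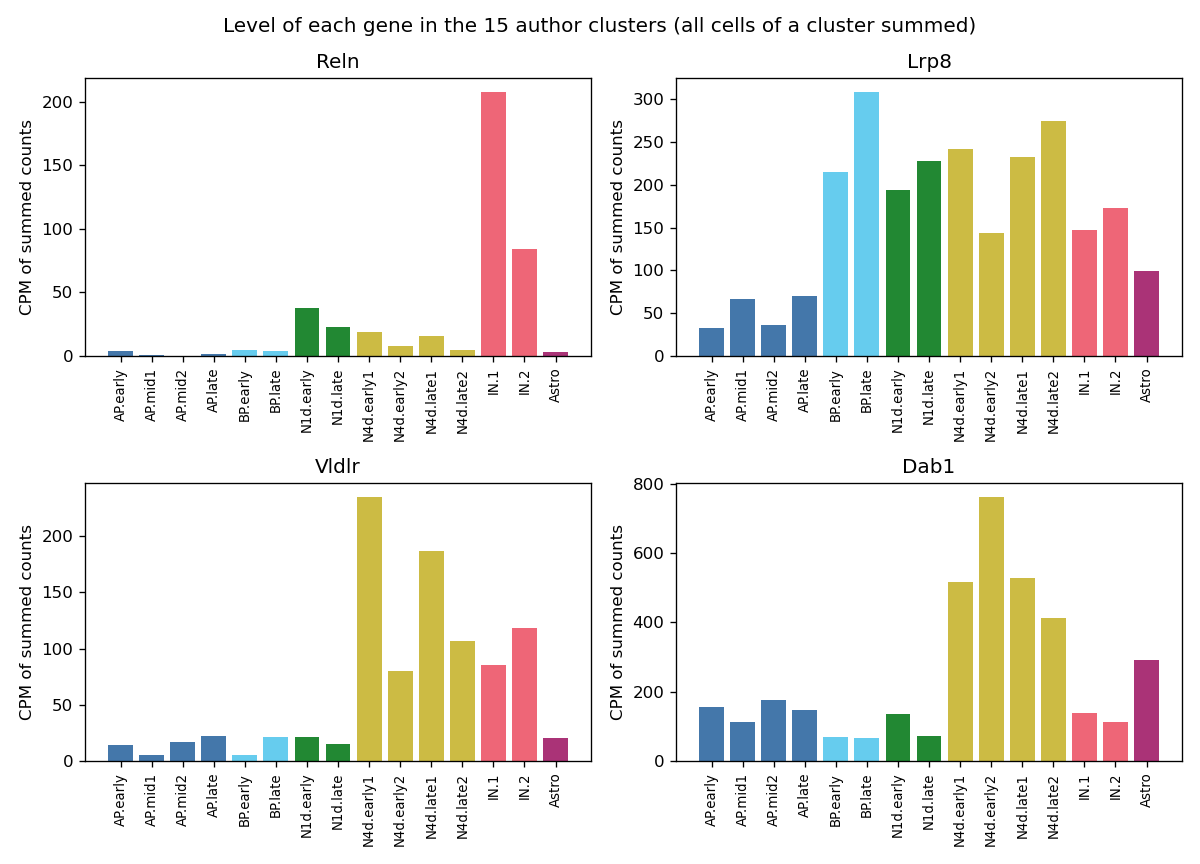
Bars give the CPM (vertical axis) of Reln, Lrp8, Vldlr and Dab1 in the summed cells of each of the 15 author clusters (horizontal axis), coloured by class. Reln peaks in IN.1 at 208 CPM, Lrp8 in BP.late at 309 CPM, Vldlr in N4d.early1 at 235 CPM and Dab1 in N4d.early2 at 762 CPM.

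In the excitatory lineage, Reln rose between 1 h and 24 h after labelling. In the summed AP, BP, N1d and N4d cells of a condition, Reln stood at 8.82, 2.53, 0.0807 and 0.149 CPM at 1 h in the order E12, E13, E14, E15. At 24 h it stood at 19.3, 33.8, 6.18 and 15.7 CPM in the same order. Every day was higher at 24 h than at 1 h, although the E12 value at 1 h lay above the E14 value at 24 h. Of the 533 Reln counts behind that E12 value, 426 came from a single N4d.early2 cell, and without it the level was 1.78 CPM. The change was 3.88 ± 1.03 (log2, SE; adjusted p = 0.0186). It was 5.53 between the main classes alone (AP at 1 h and N1d at 24 h; adjusted p = 0.00179) and 4.51 ± 1.06 without the E12 sum at 1 h. Without the E12 sum at 24 h it was 4.49 and without the E14 sum at 1 h 3.27. It missed the threshold without the E13 sum at 24 h (3.78, adjusted p = 0.0558), without the E15 sum at 1 h (3.22, adjusted p = 0.0521) and when IN and Astro cells were added to the sums (1.09, adjusted p = 0.398). With the cell of highest Reln count removed from every sum, an alternative added after seeing the data, it was 5.39 (adjusted p = 0.00118).

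At 96 h Reln in the same sums was 21.8, 5.72, 4.73 and 4.49 CPM from E12 to E15. These values overlapped those at 24 h, and the difference did not pass the test (-1.38 ± 0.88, adjusted p = 0.275). It was -2.81 (adjusted p = 0.065) between the main classes N1d and N4d, -2.34 (adjusted p = 0.0451) with the highest cell of every sum removed, -0.45 without the E15 sum at 24 h and 0.20 (adjusted p = 0.903) in all cells of a condition. Of the 4 genes, 3 passed the threshold between 1 h and 24 h and 2 between 24 h and 96 h. The shares of all 10210 genes tested that passed were 19.2% (11.4% higher and 7.76% lower) and 24.2% (11.7% higher and 12.5% lower).

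**Figure D2:**
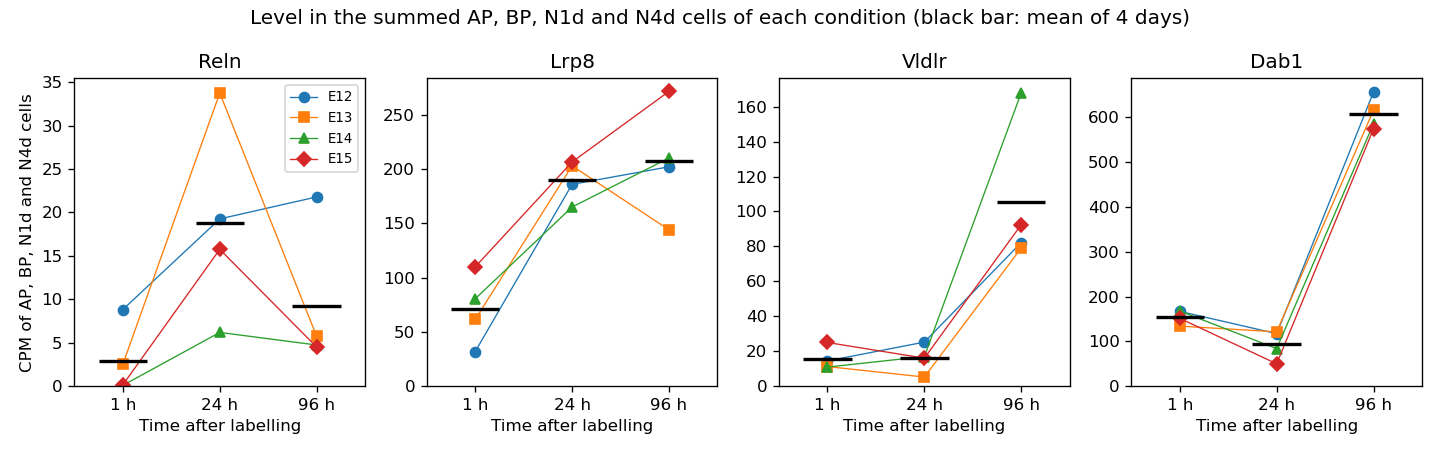
Points give the CPM (vertical axis) of each gene in the summed AP, BP, N1d and N4d cells at 1, 24 and 96 h after labelling (horizontal axis), with 1 line for each injection day and a black bar at the mean of the 4 days. Lrp8 steps up between 1 and 24 h, Vldlr and Dab1 between 24 and 96 h, and Reln has its highest point at 33.8 CPM in E13 at 24 h.

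At 96 h, Reln passed the test between interneurons and 4-day excitatory neurons, a call that rested on single cells. In IN cells it stood at 293 CPM for E12 (85 cells), 123 CPM for E13 (44 cells), 17.3 CPM for E14 (30 cells) and 5.53 CPM for E15 (35 cells). In N4d cells of the same conditions it stood at 20.6, 4.21, 4.87 and 0.544 CPM. IN was above N4d on all 4 days, while the ranges over days overlapped. At E14, 134 of the 135 Reln counts in IN came from 1 cell, and at E15 51 of 52. Without those cells IN stood at 0.133 and 0.110 CPM. N4d without its own highest cell stood at 1.06 and 0.422 CPM on those days, so that the order turned. At E12 and E13, IN without its highest cell stood at 240.2 and 81.6 CPM and N4d at 14.4 and 2.06 CPM. The difference was 3.53 ± 0.54 (log2, SE; adjusted p = 0.0068) with injection day as a block, and with no block it was 3.87 (adjusted p = 0.153). With the highest cell of every sum removed it was 2.08 ± 1.50 (adjusted p = 0.663). Dab1 also passed in this comparison, in the other direction, so 2 of 4 members were called beside 2.24% of 9362 genes. Without E12, Reln did not pass the filter on low counts. The summed level of the 10 interneuron markers was 2493 to 3422 CPM in IN and 155 to 526 CPM in N4d at 96 h. The excitatory gene Neurod6 was present in IN at 258 CPM beside 1383 CPM in N4d. The part of such mixed signal in the Reln values was not tested.

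In the summed IN cells, the Reln level at 96 h was lower on each later injection day. The levels of E14 and E15 rested on 1 cell each, so their order cannot be read. The order did not hold within IN.2, where Reln was higher at E13 than at E12. IN.1 made up 61 of 85 IN cells at E12, 29 of 44 at E13, 16 of 30 at E14 and 11 of 35 at E15. The part of this change in the Reln levels was not tested. The share of IN cells with a count, with every cell thinned to 100000 counts, was 41.5% for E12, 17.5% for E13, 6.90% for E14 and 2.94% for E15. In IN.1, 17 of 61 cells had 5 or more Reln counts at E12 and 4 of 29 at E13. At E14, 0 of 16 IN.1 cells had any Reln count, which allows a share of cells with a count of up to 18.8%, and at E15 1 of 11 had a single count. In IN.2 the cells with 5 or more counts were 7 of 24, 2 of 15, 1 of 14 and 1 of 24 from E12 to E15. Few cells carried these sums: the 5 highest cells held 54.9% of the IN.1 counts at E12 and 99.6% at E13.

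A straight line on injection day over the 4 IN sums, added after these levels were seen, had a slope of -2.00 ± 0.34 per day (log2, SE; unadjusted p = 0.000169). It did not pass over all genes (adjusted p = 0.346), where edgeR called 0 of 9362 genes (0%, with 816 at an unadjusted p under 0.05) and DESeq2 328. DESeq2 gave Reln an adjusted p of 4.21e-07. Within the run code of E12 and E13, E12 was 2.39 times E13. Within the other code, E14 was 3.13 times E15, a ratio of 1 cell to 1 cell, which without these cells left 0.133 and 0.110 CPM, both under the value of 3 counts. The direction within that code thus cannot be read. With the highest cell of every sum removed, the line was -4.27 ± 0.78 per day (adjusted p = 0.407). The step from E13 to E14 and the change of run code cannot be told apart. The line for Reln in N4d was -1.49 ± 0.55 per day (adjusted p = 0.512). None of the 4 members passed on injection day in N4d, with Reln at an unadjusted p of 0.0196, and 0.049% of 10195 genes did. For Reln, the difference between the IN and N4d lines was -0.52 ± 0.45 (adjusted p = 1; edgeR called 0% of 9362 genes, with 338 at an unadjusted p under 0.05, and DESeq2 called 15).

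**Figure D3:**
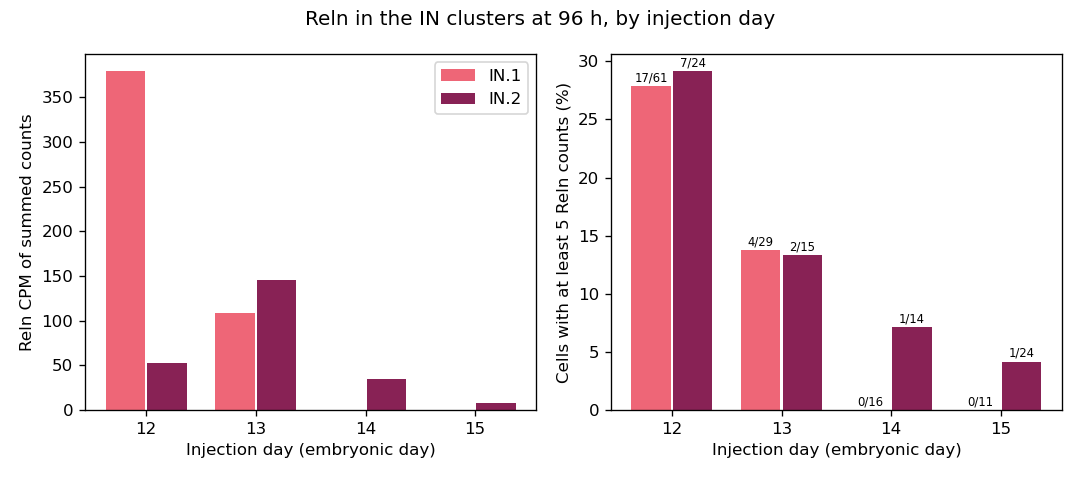
Left, Reln CPM (vertical axis) in the summed IN.1 and IN.2 cells at 96 h by injection day (horizontal axis). Right, the percentage of those cells with at least 5 Reln counts, with the number of such cells over all cells above each bar. IN.1 at E12 stands at 379 CPM and is at 0 CPM at E14.

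Markers of interneuron origin moved in several ways across days in IN at 96 h, with no test. Lhx6, a transcription factor of interneurons from the medial ganglionic eminence, stood at 497, 467, 476 and 237 CPM from E12 to E15. Maf stood at 387, 405, 405 and 263 CPM, and Sst, the peptide somatostatin, at 33.6, 47.1, 82.5 and 0 CPM. Nr2f2, known from interneurons of caudal origin, stood at 80.3, 112, 117 and 45.7 CPM. Prox1, another gene of caudal and preoptic interneurons, stood at 146, 178, 212 and 157 CPM, and Sp8 at 16.8, 44.2, 27.1 and 88.9 CPM. Of the other genes listed as caudal and preoptic, Adarb2 stood at 104, 155, 226 and 85.7 CPM. Htr3a stood at 33.1, 38.6, 38.7 and 48.9 CPM. The highest day was thus E12 for Lhx6, E14 for Sst, Nr2f2, Prox1 and Adarb2, and E15 for Sp8 and Htr3a. Maf was about equally high at E13 and E14. The part of these differences between days in the Reln levels was not tested.

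Among the 32 IN cells at 96 h with at least 5 Reln counts, 15 (46.9%) had at least 5 counts of Lhx6, beside 48.5% of all 194 IN cells. For Nr2f2 the shares were 21.9% and 19.6%. Of the genes of GABA synthesis, Gad2 had 84.4% and 68.0% and Gad1 56.3% and 59.8%. Of the Dlx genes, Dlx1 had 65.6% and 57.7%, Dlx2 25.0% and 37.6%, and the locus transcript Dlx6os1 40.6% and 60.8%. The excitatory gene Neurod6 had 84.4% and 73.2%. These shares were not tested.

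IN.2 and IN.1 were not distinguished by any of the 4 genes. Reln in IN.2 was 52.6, 145, 34.2 and 7.63 CPM from E12 to E15, and in IN.1 379, 108, 0 and 0.368 CPM. The difference was 1.84 ± 1.71 (adjusted p = 0.999), with IN.1 higher at E12 only. On the other days the IN cell of highest Reln count was an IN.2 cell. It held 466 of the 1299 IN counts at E13, 134 of 135 at E14 and 51 of 52 at E15. None of the 4 members was called, beside 0.205% of 8774 genes. Their unadjusted p-values were 0.306 to 0.983, and DESeq2 called none of them either.

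New neurons at 24 h held the second group of Reln-rich cells. Reln in N1d was 28.6, 47.9, 8.45 and 28.0 CPM from E12 to E15, beside 0.0995 to 0.654 CPM in AP and 0 to 7.97 CPM in BP of the same time. N1d was above AP and BP on all 4 days. Against BP the difference was 3.64 ± 1.22 (adjusted p = 0.159), which missed the threshold that 3.44% of 9969 genes passed. With the highest cell of every sum removed it was 5.65 ± 1.23 (adjusted p = 0.0325). A single N1d.late cell held 46.7% of the Reln counts of E15, and without it the level there was 15.0 CPM.

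Of 10 markers listed for Cajal-Retzius cells, 6 are in the table (Lhx5, Ebf3, Nhlh2, Calb2, Cacna2d2 and Ndnf), and Trp73, Lhx1, Barhl2 and Car10 were not analysed here. Their summed level in N1d at 24 h was 18.5 to 62.7 CPM, of which Nhlh2, a gene that other young neurons also express, made 37.5 CPM over all days. Lhx5 (0.114 CPM), Calb2 (0.360 CPM), Ebf3 (0.382 CPM) and Cacna2d2 (0.00439 CPM) were near 0, and Ndnf had no count. Nhlh2 had at least 5 counts in 20.4% of the N1d cells with at least 5 Reln counts and in 16.6% of all N1d cells. Among the 54 N1d cells with at least 5 Reln counts, 53 had at least 5 counts of the excitatory gene Neurod6 and 28 of Tbr1. For the interneuron genes Gad1 and Gad2 it was 1 cell each. Only 1 of the 54 cells had 2 or more of the 6 markers, and 0 had 3. No cluster of the table is named for Cajal-Retzius cells.

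Lrp8, which encodes ApoER2, had its step between progenitors at 1 h and cells at 24 h. In the lineage sums it was 31.7, 61.3, 80.4 and 109.8 CPM at 1 h from E12 to E15. At 24 h it was 186, 203, 165 and 206 CPM, so that the groups did not overlap. The rise was 1.51 ± 0.24 (log2, SE; adjusted p = 0.000933). At 96 h it was 202, 144, 210.1 and 271 CPM, which overlapped the values at 24 h, and the difference was 0.13 ± 0.24 (adjusted p = 0.715).

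By cluster, Lrp8 was highest in BP.late at 309 CPM and lowest in AP.early at 32.3 CPM. All 4 AP clusters (32.3 to 70.4 CPM) and Astro (99.4 CPM) lay below every BP and neuron cluster (143 to 309 CPM). At 24 h, Lrp8 in BP was 170.3, 285, 248 and 331 CPM from E12 to E15. In AP of the same conditions it was 0.759, 69.2, 84.5 and 26.2 CPM, from 14 to 44 cells a day. BP was above AP on each day, and the difference of 2.88 ± 0.78 missed the threshold (adjusted p = 0.124; 1% of 9969 genes passed). BP and N1d did not differ beyond their spread (-0.18 ± 0.70, adjusted p = 0.946).

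In AP at 1 h, Lrp8 was 30.4, 53.6, 47.4 and 76.1 CPM from E12 to E15. Its line of 0.36 ± 0.12 per day did not pass (adjusted p = 0.259), and none of the 4 members did, beside 1.03% of 10195 genes, with Lrp8 and Reln at unadjusted p of 0.0107 and 0.0288. In N4d at 96 h Lrp8 was 189, 142, 212 and 254 CPM. Between N4d clusters, it was 202, 227, 347 and 357 CPM in N4d.late2 and 174, 117, 126 and 185 CPM in N4d.early2 from E12 to E15. N4d.late2 was higher on all 4 days, by 0.87 ± 0.25, with an adjusted p of 0.118.

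Vldlr, the second receptor, was low until 24 h and rose by 96 h. In the lineage sums it was 14.4, 11.2, 10.9 and 25.0 CPM at 1 h and 25.2, 5.17, 16.9 and 16.0 CPM at 24 h from E12 to E15. These values overlapped (0.07 ± 0.43, adjusted p = 0.935). At 96 h it was 82.2, 79.1, 168 and 92.4 CPM, above every earlier value. The rise was 2.75 ± 0.46 (log2, SE; adjusted p = 0.0011).

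By cluster, Vldlr was 79.6 to 235 CPM in the 4 N4d clusters and 85.8 and 118 CPM in the IN clusters. In all AP, BP, N1d and Astro clusters it was 5.02 to 22.5 CPM. The highest level, in N4d.early1, came from 31 cells, of which 41.9% (24.5 to 60.9) had a count. In N4d.late1, at 186 CPM, 76.0% (68.3 to 82.7) of 146 cells had one. IN and N4d at 96 h did not differ beyond their spread: IN stood at 78.0, 127, 169 and 146 CPM and N4d at 91.2, 81.3, 173 and 100.5 CPM (0.27 ± 0.25, adjusted p = 0.756). In BP at 24 h Vldlr was 6.25, 0, 0 and 12.4 CPM from E12 to E15, with 47 cells behind the 0 of E13 and 8 behind that of E14, where 3 counts would be 0.147 and 0.748 CPM.

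Dab1, the adaptor, fell slightly and then rose strongly. In the lineage sums it was 167, 134, 168 and 151 CPM at 1 h and 117, 121, 83.7 and 49.7 CPM at 24 h from E12 to E15. All values at 24 h lay below all values at 1 h, and the change was -0.81 ± 0.19 (adjusted p = 0.0109). Between the main classes alone (AP at 1 h and N1d at 24 h) it was -0.83 and missed the threshold (adjusted p = 0.173). At 96 h Dab1 was 657, 616, 586 and 575 CPM. The rise from 24 h was 2.80 ± 0.20 (log2, SE; adjusted p = 1.23e-05).

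By cluster, Dab1 was highest in N4d.early2 at 762 CPM, and the other N4d clusters had 411 to 526 CPM. Astro (291 CPM) and the AP clusters (113 to 177 CPM) stood above the BP clusters (65.4 and 69.5 CPM). Dab1 was detected in 83.7% (77.6 to 88.6) of AP.early cells at a median depth of 319989 counts. AP.mid1 had the lowest share of the AP clusters, at 50.4% (43.8 to 57.1) and 318583 counts. The share was 48.8% (39.6 to 58.0) in BP.late at 378045 counts and 56.1% (46.1 to 65.7) in BP.early at 415016 counts. The unthinned shares of AP and BP clusters thus overlapped, at unequal depths. In thinned cells the share was 39.9% in AP.mid1 to 72.7% in AP.early, beside 39.2% in BP.early and 28.3% in BP.late. The AP clusters then lay above both BP clusters, although AP.mid1 and BP.early were close, and this was not tested. Within 24 h samples, BP was below AP on all 4 days: 85.7, 19.5, 47.6 and 14.8 CPM against 148, 103, 107 and 158 CPM from E12 to E15. The difference of -1.98 ± 0.66 missed the threshold (adjusted p = 0.218).

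Among 4-day cells Dab1 separated the classes. In N4d at 96 h it was 706, 650.1, 601 and 628 CPM from E12 to E15, and in IN 171, 212, 152 and 58.4 CPM, with no overlap. IN was lower by -2.21 ± 0.27 (log2, SE; adjusted p = 0.00165). N4d.early2 had 814, 723, 749.9 and 811 CPM and N4d.late2 475, 324, 535 and 428 CPM, again with no overlap. The difference was -0.86 ± 0.17 (adjusted p = 0.0457), the only call among the 3 members tested there, beside 1.04% of 9230 genes. It missed the threshold under each omission of a day (adjusted p 0.0576 to 0.177) and when DESeq2 size factors replaced TMM (-0.83, adjusted p = 0.0547).

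Dab1 in new neurons was low at the latest injection day. In N1d at 24 h it was 132, 159, 78.1 and 13.3 CPM from E12 to E15, while in AP at 1 h it was 163, 129.7, 157 and 152 CPM. In thinned cells, 44.9%, 45.8%, 33.1% and 14.2% of N1d cells at 24 h had a Dab1 count from E12 to E15. Over all conditions the thinned share was 26.7% in N1d.late and 44.8% in N1d.early. Unthinned it was 41.8% (36.6 to 47.2) in N1d.late and 49.7% (44.1 to 55.3) in N1d.early, at median depths of 396349 and 239808 counts. The line in N1d was -1.07 ± 0.25 per day (adjusted p = 0.095; 0.383% of 10195 genes passed). It rested on E15: without that sum it was -0.37 (adjusted p = 0.665), and without E12 at 24 h it was -1.78 (adjusted p = 0.0406). DESeq2 called it (adjusted p = 1.1e-06). The difference between the lines of AP, N1d and N4d did not pass for Dab1 (adjusted p = 0.339), and 0.226% of 10195 genes passed. E12 and E13 share a run code, as do E14 and E15, and with the code as a block the line was -1.17 (adjusted p = 0.989). In N4d at 96 h the Dab1 line was flat to within its error, at -0.08 ± 0.20 per day.

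**Figure D4:**
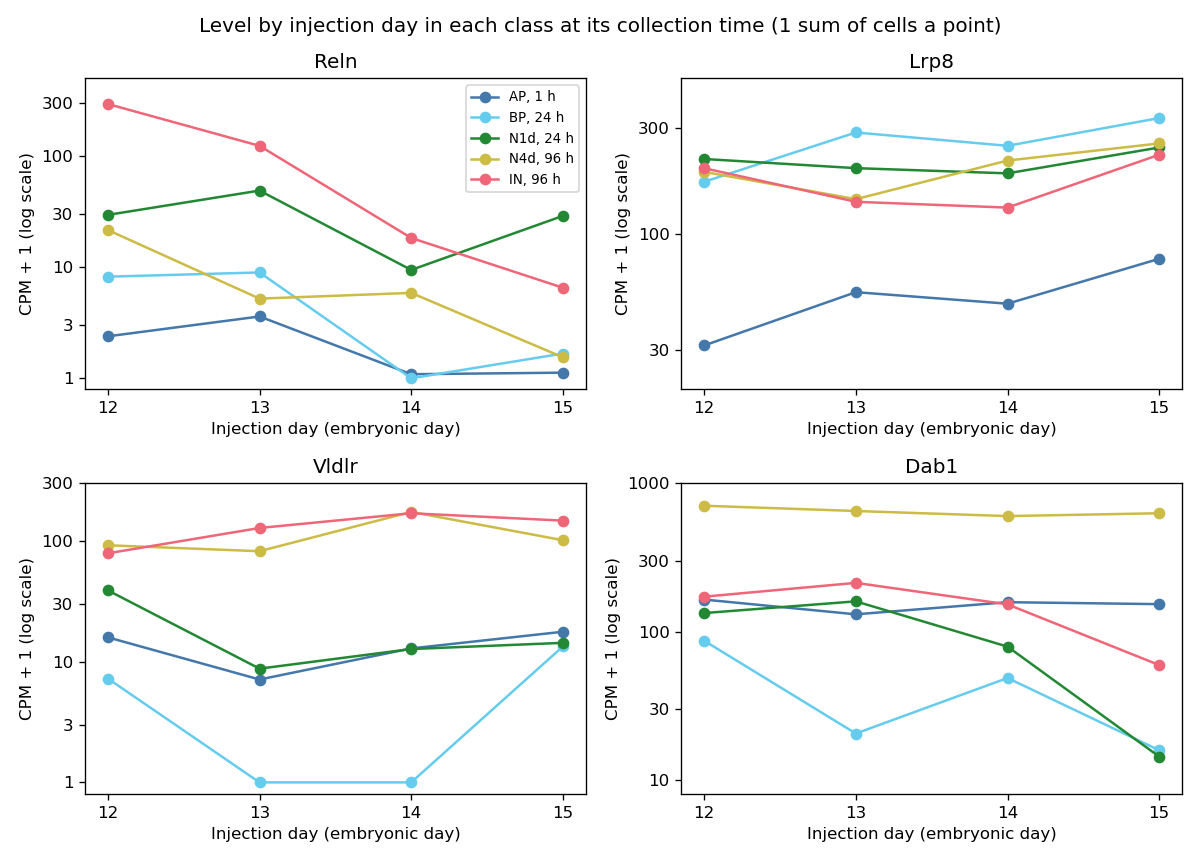
Points give CPM + 1 on a log scale (vertical axis) of each gene by injection day (horizontal axis) in AP at 1 h, BP and N1d at 24 h, and N4d and IN at 96 h, with 1 sum of cells a point. Reln in IN runs from 293 CPM at E12 to 5.53 CPM at E15, Dab1 in N1d ends at 13.3 CPM, and Dab1 in N4d stays between 601 and 706 CPM.

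Detection at 1 fixed depth rose in the same 4 steps in which the levels had risen. With cells thinned to 100000 counts, Reln was detected in 1.97% ± 1.08 (SD, n = 4 injection days) of AP cells at 1 h and 11.8% ± 2.71 of N1d cells at 24 h. Lrp8 went from 31.5% ± 4.88 to 69.5% ± 9.27 over the same step. Vldlr went from 9.25% ± 2.95 of N1d cells at 24 h to 43.9% ± 12.5 of N4d cells at 96 h, and Dab1 from 34.5% ± 14.7 to 93.3% ± 2.03. The days of the paired groups did not overlap in these 4 steps. Each had a two-sided exact permutation p of 0.0286, the smallest that 4 against 4 can give, and after adjustment over 8 tests none passed (0.0571). The unthinned shares were 3.89%, 17.4%, 44.3% and 79.6% for the first pair of steps and 13.7%, 54.9%, 43.7% and 95.8% for the second. The fall of Dab1 between 1 h and 24 h was less clear per cell. In thinned cells Dab1 went from 57.3% ± 14.1 of AP to 34.5% ± 14.7 of N1d cells, and the days overlapped. The exact permutation p for this fall was 0.0571 (adjusted p = 0.0914).

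Cells with a count of the adaptor and of a receptor were found in every class, with the highest mean share in 4-day neurons. In thinned cells, both receptors had a count in 2.37% ± 1.98 (SD, n = 4 injection days) of AP cells at 1 h, 2.55% ± 4.23 of BP and 6.85% ± 2.84 of N1d cells at 24 h. At 96 h the share was 32.7% ± 11.9 in N4d and 26.1% ± 9.07 in IN. BP and N1d cells had mostly Lrp8 alone (69.4% ± 9.15 and 62.6% ± 8.54). A receptor without a Dab1 count was found in 56.7% ± 12.9 of BP and 46.6% ± 16.7 of N1d cells, beside 5.06% ± 0.968 of N4d cells. Dab1 without a receptor was most frequent in AP at 1 h (35.0% ± 8.39). Dab1 with at least 1 receptor was found in 22.3% ± 8.44 of AP cells at 1 h, 25.2% ± 9.04 of N1d cells, 56.7% ± 10.5 of IN cells and 75.7% ± 9.66 of N4d cells. Of the 63 thinned Astro cells at 96 h, 50.8% (37.9 to 63.6) had both. These combinations follow from the detection of each gene at this depth and were not tested.

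**Figure D5:**
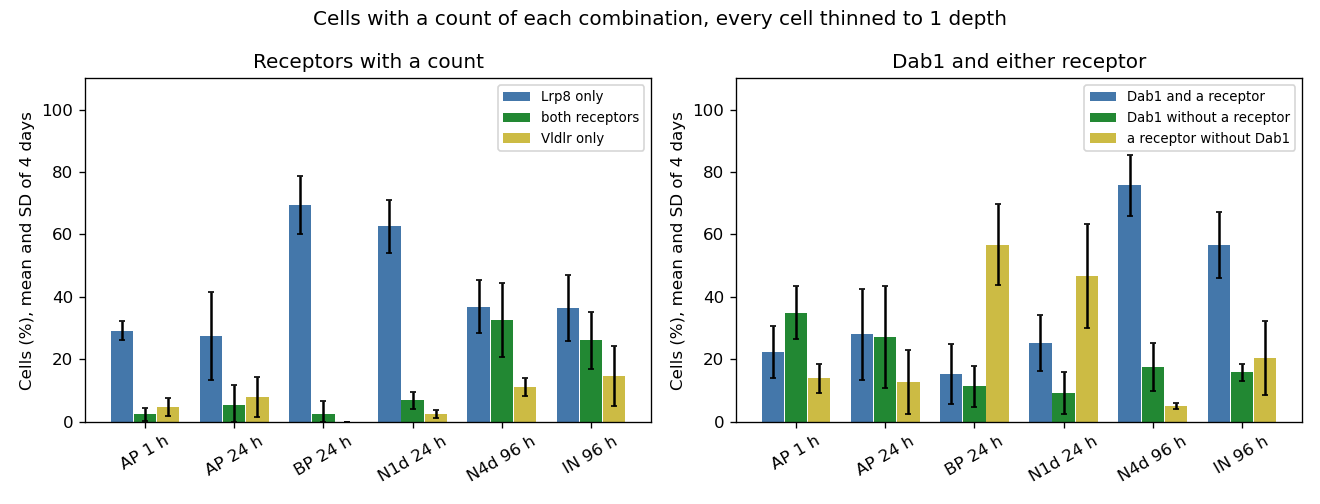
Bars give the percentage of cells (vertical axis; mean of the 4 injection days, error bars 1 SD, cut at 0) in each class and time (horizontal axis) with a count of Lrp8 only, Vldlr only or both (left), and with Dab1 and a receptor, Dab1 alone or a receptor alone (right), every cell thinned to 100000 counts. Lrp8 alone leads in BP at 69.4%, and Dab1 with a receptor leads in N4d at 75.7%.

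Of 47 other pathway genes listed by role, 41 were tested across times. Between 1 h and 24 h, 9 were higher and 1 was lower (median change of the list 0.09 log2, beside -0.0032 over all genes tested). Over all genes, 11.4% were higher and 7.76% lower. The 3 tested genes of the Cdk5 branch, a kinase pathway that acts beside Reelin in neuronal migration, all rose. Cdk5r1, the p35 activator of Cdk5, rose by 2.94 ± 0.28 (adjusted p = 3.05e-05). Lrpap1, a chaperone of lipoprotein receptors, rose by 1.95 ± 0.20, Adamts2, a metalloproteinase that can cleave Reelin, by 5.96 ± 0.87, and Cfl1, the actin-severing cofilin, by 0.80 ± 0.15. Nde1, a partner of Lis1 in dividing progenitors, fell by 1.27 ± 0.25 (log2, SE).

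Between 24 h and 96 h, 11 of the 41 were higher and 5 lower (median 0.29 beside -0.03 over all genes). Over all genes, 11.7% were higher and 12.5% lower. Mapt, the microtubule protein tau, rose by 3.92 ± 0.51, Grin2b, an NMDA receptor subunit, by 4.72 ± 0.97, Pik3r1, a PI3-kinase subunit, by 2.53 ± 0.38, and the adaptor Nck2 by 1.32 ± 0.27. Nde1 fell by 2.93 ± 0.27, Lrpap1 by 1.41 ± 0.20, Rnf7, the RING partner of Cullin 5, by 0.83 ± 0.18, and Cfl1 by 0.66 ± 0.15. Lrpap1 and Cfl1 thus rose and then fell, while Nde1 fell in both steps. Of the 3 Src family kinases, 1 was higher in each step, in both cases Fyn (0.72 ± 0.20 and 0.72 ± 0.20). Of the 4 genes of Dab1 turnover, edgeR called none in the first step, where Socs6, a partner of Cullin 5, was at -0.73 ± 0.24 (adjusted p = 0.0511) and was called by DESeq2, and in the second Cul5 rose by 0.58 ± 0.17 while Rnf7 fell. Of the 3 tested genes of Reelin cleavage, Adamts2 passed in the first step and Adamts3 in the second (1.69 ± 0.54).

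Few pathway genes passed elsewhere. Between BP and N1d at 24 h, Efnb2, an ephrin ligand, was higher in N1d by 0.93 ± 0.21 and Nde1 lower (-1.98 ± 0.42), 2 of 40 genes beside 3.44% of all, and DESeq2 called 6. Between IN and N4d at 96 h, Thbs1, a secreted ligand that can bind the same receptors, was higher in IN by 3.71 ± 0.53, the only one of 40 in edgeR beside 2.24% of all genes, and DESeq2 called Adamts2 as well. On injection day in AP at 1 h, Mapt (1.50 ± 0.12 per day), Cdk5r1 (0.65 ± 0.12) and Grin2b (2.29 ± 0.45) rose, 3 of 41 beside 1.03% of all genes, and DESeq2 called Clu as well. The 8 excitatory neuron markers summed to 240, 154, 313 and 331 CPM in these AP sums from E12 to E15, and their part in those 3 lines was not tested. The AP, N1d and N4d lines differed for Mapt (adjusted p = 0.00294), the only one of 41 to pass in edgeR beside 0.226% of all genes, while DESeq2 also called Cdk5r1 and Grin2b. In the other 7 comparisons edgeR called none of the listed genes. BP against AP at 24 h had 3 of 40 genes at an unadjusted p under 0.05, and DESeq2 called Nde1. N4d.late2 against N4d.early2 had 6 of 40, and DESeq2 called Grin2b. IN.2 against IN.1 had 3 of 39, and DESeq2 called Thbs1. Injection day in N1d had 7 of 41, and DESeq2 called Cdh2, a cadherin that acts downstream of Rap1 in migrating neurons. Injection day in N4d had 5 of 41, and DESeq2 called none. Injection day in IN had 4 of 40, and DESeq2 called Crkl, while the IN minus N4d line had 1 of 40 and DESeq2 called none.

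The genes most like each member over the 15 clusters were found among 10672 genes by Pearson's r of log2(CPM + 1). These are descriptions across clusters that share conditions and libraries. Closest to Reln were Apba2 (0.86), Grip1 (0.86), Vav2 (0.85), Mettl17 (0.85) and Bcl11b (0.84). Closest to Lrp8 were Plxna2 (0.94), Kif21b (0.94), Pam (0.94), Arhgef1 (0.93) and Atp2b2 (0.92). Among those closest to Vldlr were Ahi1 (0.96), Kifc3 (0.95), Lrfn5 (0.94) and Lppr5 (0.94), and closest to Dab1 were Fam3c (0.88), Fat4 (0.87), Sh3d19 (0.87), Cul5 (0.86) and Mb21d2 (0.86). Among the members themselves, Vldlr and Dab1 had an r of 0.68, Reln and Vldlr 0.55, Reln and Lrp8 0.50, Lrp8 and Vldlr 0.44, and Dab1 had 0.05 with Lrp8 and -0.01 with Reln. By Spearman's rho, the top 5 kept 2 genes for Reln, 1 for Lrp8, 3 for Vldlr and 2 for Dab1.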

How the data were processed

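The authors deposited 1 table of raw counts (whole reads per gene and cell, 16441 genes by 2756 cells) with no normalization. Per the submitters' processing notes, GRCm38, TopHat2 2.0.13 and UMI-tools were used. The counter, annotation, strand setting and filters are not given in the sources used here. Column totals equal the reads stated per cell in the labels, so the counts were taken as reads. With full-length cDNA the reads of a gene scale with its length, so levels were never compared between genes. Detection of a count depends on this too, so shares of different genes and combinations of genes carry that difference.

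Counts were summed over the cells of a cluster or class within a condition and divided by the summed total, as CPM (counts per M, or mega, counts in all). The labels name no animal or replicate, so a condition was 1 sample, the 4 injection days stood as the samples of a time, and a p-value covers only how these sums vary, which may be technical. Sums were tested with edgeR 4.0.16 in R 4.3.3 (quasi-likelihood test, TMM scaling, genes with at least 10 CPM in at least 3 sums), and p-values were adjusted over all genes tested by Benjamini-Hochberg with a threshold of 0.05. Injection day was a centred number in the comparisons of times and a block in the comparisons of classes within a time, since classes of a day come from 1 condition. DESeq2 1.42.0 was an alternative. Shares of cells were compared by two-sided exact permutation tests after thinning each cell to 100000 counts, which left out 122 cells. Python 3.11.15, numpy 2.4.6, pandas 2.3.3 and scipy 1.17.1 were used. The fits were tested on simulated sums drawn from the mean and fitted spread of each gene. Single cells were not simulated, so sums carried by a single cell, as for Reln in IN at E14, were not covered.

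The 4 genes, the pathway and marker lists, the comparisons and the alternatives were chosen with earlier results of these data known. The 4 genes are always named, then up to 4 pathway genes in each direction per comparison with the smallest p at a mean of at least 10 CPM, and for each of the 4 genes the 5 most alike over clusters, of which 1 is not reported here. The removal of each sum's cell of highest Reln count and the fit of a day trend in IN were added after the levels were seen. Positions are from GENCODE vM21 and promoter windows from RefSeq, both on GRCm38.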

Additional observations from a re-analysis of the deposited data

Results flagged for a closer look

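In 3 of 36 groups of 4 injection days, 1 day stood apart by Dixon's limit for 4 samples (0.829 of the range), and chance gives about 1 in 20 groups. Reln in AP at 24 h was 0.0995 CPM for E14, below the other days, but this is 2 counts in 32 cells, and the other days had 3, 6 and 16 counts. Reln in the summed AP, BP, N1d and N4d cells at 96 h was 21.8 CPM for E12, above the other days, and Vldlr in the same sums was 168 CPM for E14.

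Cells that entered no comparison also carried these genes. The 33 IN cells of E15 at 1 h had 145 CPM of Reln, 95.5 CPM of Lrp8, 79.0 CPM of Vldlr and 12.0 CPM of Dab1. A single IN.2 cell held 61.9% of those Reln counts, and without it the level was 57.3 CPM. At 96 h, IN cells of the same injection day had 5.53 CPM of Reln and 58.4 CPM of Dab1, and the difference was not tested. The 54 Astro cells of E15 at 96 h had 1.33 CPM of Reln, 94.6 CPM of Lrp8, 21.8 CPM of Vldlr and 264 CPM of Dab1.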

How the results depend on the processing

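Each condition is 1 sample, so differences between animals or litters cannot be told apart from those between days. The counts are reads without a stated molecule count, and sums of few cells, such as the 8 BP cells of E14 at 24 h, limit the low genes. Called members kept their direction under the alternatives run, and 30 sign changes fell on members that were not called. The single values of members, from fits and from tests of shares, were also counted. With a sum or an injection day left out, 470 kept the side of the threshold, 7 gained a call and 6 lost one. With other settings, 287 kept it, 22 gained a call and 6 lost one.

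DESeq2 called more members than edgeR: 2 instead of 0 for BP against AP (Lrp8 and Dab1), 2 instead of 0 for N1d against BP (Reln and Vldlr), 2 instead of 0 for the IN line, 2 instead of 1 for N4d.late2 against N4d.early2, and 1 instead of 0 each for the AP line (Reln, adjusted p = 0.0342), the N1d line and the difference of lines (both Dab1). With no replicate block, 1 member instead of 2 was called for IN against N4d, with Reln at 3.87, and omissions gave 1 (without E12) to 2. With each sum's cell of highest Reln count removed, an alternative added after seeing the data, 1 member was called there, with Reln at 2.08, and 1 instead of 0 for N1d against BP (Reln). For N4d.late2 against N4d.early2, Dab1 was -0.83 with DESeq2 size factors, -0.84 with no replicate block and -0.99 to -0.75 under omissions, with 0 members called in each of these. The N1d line and the difference of lines had 0 to 1 members called under omissions, 1 without E12 at 24 h.

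Between 1 h and 24 h, Reln was 1.09 in all cells of a condition, 5.53 in the main class of each time and 3.22 to 4.51 under omissions. Dab1 was -0.83 in the main class alone. Injection day as a replicate block in the comparisons of times changed no member's call. Of the 8 tests of shares, 0 passed as reported, 5 at 50000 counts, 5 with at least 5 counts a cell, and 0 to 5 under omissions (5 without AP of E13 at 1 h). The causes were not tested.

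The number of all genes called moved by over 1.5 times in these cases. Between 1 h and 24 h it was 1959, and 3249 in the main class alone. With DESeq2 it was 696 instead of 100 (BP against AP), 1028 instead of 343 (N1d against BP), 815 instead of 210 (IN against N4d), 955 instead of 96 (N4d.late2 against N4d.early2), 359 instead of 18 (IN.2 against IN.1), 286 instead of 23 (difference of lines), 328 and 15 instead of 0 (the IN line and IN minus N4d), and 343, 386 and 166 instead of 105, 39 and 5 for the lines in AP, N1d and N4d. With the run code as a block those 3 lines had 33, 0 and 1 calls and their difference 1. With no filter the 3 lines had 48, 0 and 2 calls, their difference 9, BP against AP 60 and IN.2 against IN.1 66. N4d.late2 against N4d.early2 had 276 calls in thinned cells and 63 with no replicate block, N1d against BP 221 with no replicate block, and the N4d line 2 in thinned cells. Under omissions the 5 comparisons of classes had 2 to 60, 71 to 188, 99 to 168, 0 to 9 and 1 to 7 calls in that order, and the lines 58 to 126, 0 to 54 and 3 to 10, with 14 to 32 for their difference.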
